A study of Mus musculus with 16 samples.

Results

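Gpr6, Gpr83, Gpr139, Gpr149 and Gpr155 are 5 genes of G protein-coupled receptors that were named as orphans because no endogenous ligand was known when they were cloned, and their RNA was followed here in the mouse striatum. The members were chosen by gene symbol, with earlier results of these data known. They were kept if at least 10 counts were present in at least 4 of the 16 libraries. All 5 passed, with at least 10 counts in 16 of 16 libraries, out of 19363 genes that passed the same filter and entered every test. Striatal mRNA was sequenced from untreated male mice of the C57Bl/6 background at 14 weeks of age, with 1 library per mouse. The study’s methods give the background as pure C57BL/6J. R6/1 mice carry a transgene with exon 1 of human huntingtin and an expanded CAG repeat (strain B6.Cg-Tg(HDexon1)61Gpb/J) and are a model of Huntington’s disease, while wild-type mice were littermates without the transgene. Within each genotype, mice had been classed as “good” or “poor” performers from Z-scores of rotarod performance, feet clasping and body weight, which gave 4 groups of 4 mice. The model expresses only a fragment of the human protein, and the mice of a performance class were selected for their scores from several cohorts and litters. The cohort and litter of a mouse are not among the labels, so their part in the values was not tested. Wild-type “good” mice 1 and 2 carry the numbers 8 and 8b in the labels and were taken as separate mice because they are listed as separate replicates. Leaving out either one changed no call of a member.

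G protein-coupled receptors sit in a membrane, bind a ligand outside the cell and switch on heterotrimeric G proteins inside it, and receptor kinases and arrestins then switch the receptor off. The main cells of the striatum are medium spiny neurons, of which the direct pathway type carries the dopamine receptor Drd1 and the indirect pathway type carries Drd2. Gpr6 is active without an added ligand, raises cyclic AMP through Gs and is known from indirect pathway neurons. Gpr83 was first described as a glucocorticoid-induced receptor, and a peptide cut from proSAAS, the product of Pcsk1n, has been proposed as its ligand. Gpr139 responds to the aromatic amino acids tryptophan and phenylalanine and is known from habenula and striatum. Gpr155, also called LYCHOS, is a lysosomal protein that senses cholesterol and acts with the GATOR1 complex on mTORC1, whereas little is known of the function of Gpr149.

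In GRCm38 with the GENCODE M21 annotation, the 5 protein-coding genes lie on 5 chromosomes. Gpr6 (ENSMUSG00000046922) spans chr10:41069977-41072285 on the minus strand, and its exons cover 1786 bases in 2 blocks. Gpr83 (ENSMUSG00000031932) spans chr9:14860210-14870789 on the plus strand, with 5095 exon bases in 4 blocks. Gpr139 (ENSMUSG00000066197) spans chr7:119140747-119184603 on the minus strand, with 4843 exon bases in 2 blocks. Gpr149 (ENSMUSG00000043441) spans chr3:62529077-62605140 on the minus strand, with 4288 exon bases in 4 blocks. Gpr155 (ENSMUSG00000041762) spans chr2:73341506-73386572 on the minus strand, with 6679 exon bases in 19 blocks. Its exons share 120 bases with the antisense gene Gm13703 and 166 bases with the antisense gene Gm13709, which had 10 to 29 and 2 to 13 counts per library against 1747 to 4844 counts for Gpr155. The other 4 members overlap no annotated gene.

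The 250 bases before the transcription start were taken from RefSeq (GRCm38.p6), which held 3 of the 5 members, to show what lies in front of 3 of the genes that were lower in R6/1 mice. They are written 5′ to 3′ on the strand of the gene, and capitals mark a match on either strand to the full cyclic AMP response element (letters TGACGTCA), to the inverted or direct CAAT box (letters CCAAT), to the GC box (letters GGGCGG) or to the TATA box (letters TATAAA). Different motifs did not overlap in these promoters, but 2 neighbouring copies of the GC box in Gpr155 share a base.
Gpr6, chr10:41072291-41072540, minus strand: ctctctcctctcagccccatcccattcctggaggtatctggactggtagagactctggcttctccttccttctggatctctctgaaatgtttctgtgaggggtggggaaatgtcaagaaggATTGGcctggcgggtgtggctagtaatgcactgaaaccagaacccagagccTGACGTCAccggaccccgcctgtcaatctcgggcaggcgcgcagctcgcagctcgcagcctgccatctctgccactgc
Gpr83, chr9:14859960-14860209, plus strand: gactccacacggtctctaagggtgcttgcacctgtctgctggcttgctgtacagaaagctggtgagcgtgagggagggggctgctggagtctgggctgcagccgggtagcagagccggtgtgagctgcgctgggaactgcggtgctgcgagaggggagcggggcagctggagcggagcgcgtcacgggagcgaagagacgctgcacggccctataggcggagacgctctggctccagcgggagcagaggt
Gpr155, chr2:73386481-73386730, minus strand: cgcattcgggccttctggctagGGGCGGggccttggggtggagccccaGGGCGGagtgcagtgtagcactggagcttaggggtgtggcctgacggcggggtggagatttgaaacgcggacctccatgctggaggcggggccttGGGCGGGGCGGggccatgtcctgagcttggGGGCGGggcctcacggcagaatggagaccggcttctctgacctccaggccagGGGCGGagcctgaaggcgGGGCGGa
Gpr6 held TGACGTCA at −78 to −71 from the start and CCAAT, on the opposite strand, at −129 to −125. Among 32851 RefSeq mouse promoters, here 300 bases long with 250 before and 50 after the start, 1.79% held TGACGTCA and 37.4% held CCAAT on either strand. Gpr155 held 7 copies of GGGCGG, a motif present in 35.7% of promoters. The Gpr83 stretch held none of the 4 motifs in full, since its TATAAA, present in 13.6% of promoters, runs across the start. Over all 300 bases the GC content was 58.7% for Gpr6, 67% for Gpr83 and 70.3% for Gpr155, against a median of 52.7% over all promoters. GENCODE M21 begins Gpr155 further upstream than the RefSeq start, so the bases nearest to the RefSeq start, with some of the GC boxes, lie inside the gene as placed there. A match of letters is a description of the sequence and not a bound site.

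Libraries held 16155356 to 24897354 counts, with a median of 20889934, and levels are given as counts per 1000000 (CPM) after scaling by trimmed mean of M-values. The 8 libraries numbered 1 to 8 in the deposited column names were all smaller (at most 20250680 counts) than the 8 numbered 9 to 16 (at least 21529188). Libraries 1 to 8 included all 4 R6/1 “good” mice but 1 of 4 R6/1 “poor” mice, so performance within R6/1 mice and library number could be told apart only by that mouse. The tissue was checked by markers, and all 7 pan medium spiny neuron markers were detected in both genotypes, with a summed level of 3566 to 5867 CPM in wild-type “good”, 3623 to 4581 in wild-type “poor”, 1483 to 2389 in R6/1 “good” and 993 to 1474 in R6/1 “poor” mice. All 7 were lower in R6/1 than in wild-type mice (median log2 fold change −1.07). Markers of other striatal cells were lower as well, with 3 of 4 cholinergic interneuron, 3 of 5 GABAergic interneuron, 4 of 5 astrocyte, 5 of 5 microglial, 4 of 4 endothelial and 2 of 5 oligodendrocyte markers called lower and 0 called higher (medians −1.37, −0.79, −0.37, −0.42, −0.48 and −0.20), while 0 of 4 ependymal markers were called. Their summed levels in wild-type and R6/1 mice were 64.3 to 134 and 23.9 to 53.7 CPM for cholinergic interneurons, 274 to 358 and 157 to 199 CPM for GABAergic interneurons and 4157 to 4792 and 2486 to 3171 CPM for astrocytes. They were 444 to 551 and 307 to 417 CPM for microglia and 263 to 326 and 180 to 236 CPM for endothelial cells. The genotypes overlapped for oligodendrocytes, at 8358 to 12224 and 6110 to 9466 CPM. They also overlapped for ependymal cells, at 9.29 to 34.2 and 10.2 to 36.8 CPM. The part of these cells in the receptor values was not tested. In bulk tissue, fewer cells of a type and less RNA per cell cannot be told apart.

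Gpr6, Gpr83, Gpr139 and Gpr155 were lower in the striatum of R6/1 mice than of wild-type mice, and Gpr149 was not called. Mean CPM in R6/1 mice was 32.8% of the wild-type mean for Gpr6, 35% for Gpr83, 18% for Gpr139 and 60.9% for Gpr155, whereas it was 136% for Gpr149. At a threshold of 0.05 on adjusted P (edgeR’s quasi-likelihood test, Benjamini-Hochberg adjustment over all genes tested), 4 of 5 members were called lower and 0 higher in the 8 R6/1 mice against the 8 wild-type mice. Of all genes tested, 17.0% were called lower and 17.2% higher in the same comparison. For 3 members, Gpr6, Gpr83 and Gpr139, every R6/1 value lay below every wild-type value, which held for 5.03% of all genes. Because the members were chosen with earlier results known, their excess over these shares is no independent finding.

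**Figure D1:**
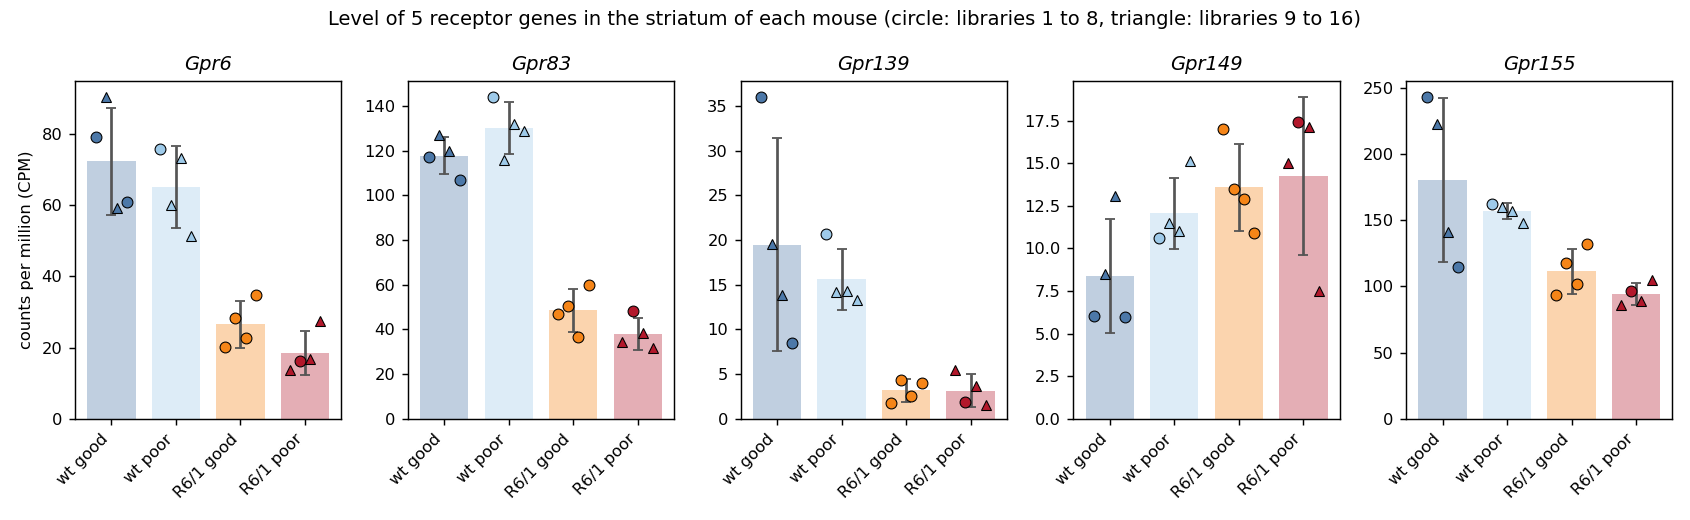
Level of each receptor gene in CPM (vertical axis, starting at 0) in wild-type and R6/1 mice classed as “good” or “poor”. Bars are group means, error bars are SD (n = 4 mice), and each point is a mouse, drawn as a circle for libraries 1 to 8 and as a triangle for libraries 9 to 16. All R6/1 points for Gpr6, Gpr83 and Gpr139 lie below all wild-type points, those of Gpr155 overlap through R6/1 “good” mice, and those of Gpr149 overlap in every group.

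Gpr6, the receptor of indirect pathway neurons, had 79.1, 90.4, 59.1 and 60.8 CPM in the 4 wild-type “good” mice and 75.9, 60, 73.2 and 51.3 CPM in the 4 wild-type “poor” mice. It had 20.2, 28.4, 22.7 and 34.9 CPM in R6/1 “good” and 13.6, 16.2, 16.9 and 27.4 CPM in R6/1 “poor” mice. The highest R6/1 mouse thus stayed below the lowest wild-type mouse, and the 2 R6/1 groups overlapped each other. Between the genotypes the log2 fold change was −1.61 ± 0.178 (SE), a 3.05-fold lower level (adjusted P = 4.9e-06, edgeR). Only 0.852% of all genes had a lower log2 fold change in this comparison.

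Gpr83, the proposed receptor of a proSAAS peptide, had the smallest SE of the 5 members in the comparison of the genotypes. Its values were 117, 127, 120 and 107 CPM in wild-type “good” and 144, 116, 132 and 129 CPM in wild-type “poor” mice, against 47.1, 50.5, 36.6 and 59.8 CPM in R6/1 “good” and 34.2, 48.1, 38.5 and 31.9 CPM in R6/1 “poor” mice. The gap between the genotypes ran from 59.8 to 107 CPM, with no mouse in between. The log2 fold change was −1.52 ± 0.112 (adjusted P = 6.8e-08, edgeR), which put Gpr83 at rank 22 of 19363 genes by P. Pcsk1n, which encodes the precursor of its proposed ligand, had a log2 fold change of 0.04 between the genotypes (adjusted P = 0.872, edgeR).

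Gpr139, the receptor for aromatic amino acids, had the largest fold difference of the 5 members and the lowest counts in R6/1 mice, 36 to 129 per library. In wild-type “good” mice it had 36, 19.6, 13.9 and 8.5 CPM, a wider range than the 20.7, 14.2, 14.3 and 13.3 CPM of wild-type “poor” mice. It had 1.76, 4.37, 2.51 and 4.05 CPM in R6/1 “good” and 5.51, 1.88, 3.65 and 1.55 CPM in R6/1 “poor” mice. The highest R6/1 value, 5.51 CPM, was below the lowest wild-type value, 8.5 CPM, and the log2 fold change was −2.47 ± 0.31, a 5.53-fold lower level (adjusted P = 1.8e-05, edgeR).

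Gpr155, the lysosomal cholesterol sensor, fell less. Its values were 243, 223, 141 and 115 CPM in wild-type “good” and 162, 160, 157 and 148 CPM in wild-type “poor” mice, and 93.2, 118, 102 and 132 CPM in R6/1 “good” and 86.1, 96.4, 89.3 and 105 CPM in R6/1 “poor” mice. R6/1 “poor” mice lay below every wild-type mouse, whereas 2 R6/1 “good” mice, at 118 and 132 CPM, were above the wild-type “good” mouse at 115 CPM. Between the genotypes the log2 fold change was −0.72 ± 0.134 (adjusted P = 5.7e-04, edgeR), but within libraries 1 to 8 it was −0.69 with an adjusted P of 0.0625.

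Gpr149 did not pass the test in any comparison between groups. It had 6.05, 8.48, 13.1 and 5.97 CPM in wild-type “good”, 10.6, 11.5, 11 and 15.1 CPM in wild-type “poor”, 17, 13.5, 12.9 and 10.9 CPM in R6/1 “good”, and 15, 17.4, 17.1 and 7.49 CPM in R6/1 “poor” mice. All groups overlapped, with 3 R6/1 “poor” mice at 15 to 17.4 CPM and 1 at 7.49 CPM. Between the genotypes its log2 fold change was 0.44 ± 0.2 (adjusted P = 0.0976, edgeR). Within libraries 9 to 16 it was 0.16 (adjusted P = 0.711, edgeR). It was called higher within libraries 1 to 8 (0.91, adjusted P = 0.0203), without wild-type “poor” mouse 4 (0.54, adjusted P = 0.0449) and without R6/1 “poor” mouse 4 (0.54, adjusted P = 0.0292), all by edgeR.

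Each R6/1 performance class was then compared with the pooled wild-type mice, and these comparisons share their 8 control mice. In R6/1 “good” against wild-type mice, 4 of 5 members were called lower and 0 higher, against 12.4% and 12.1% of all genes. The log2 fold changes were −1.37 for Gpr6 (adjusted P = 1.2e-04, edgeR), −1.35 for Gpr83 (3.5e-06), −2.46 for Gpr139 (0.00104) and −0.60 for Gpr155 (0.0288). For Gpr149 the value was 0.41 (0.205). The call of Gpr155 was lost when R6/1 “good” mouse 1, 2 or 3 was left out (log2 fold changes −0.52, −0.63 and −0.56, adjusted P = 0.0928, 0.0568 and 0.0818, edgeR), whereas leaving out R6/1 “good” mouse 4, the highest of its group, kept it. It was also lost in 5 of the other alternative fits. The call of Gpr149 as higher appeared with library number as a covariate (0.84, adjusted P = 0.0232, edgeR) and within libraries 1 to 8 (0.83, adjusted P = 0.042). Every R6/1 “good” value of Gpr6, Gpr83 and Gpr139 lay below every wild-type value, which held for 7.76% of all genes.

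In R6/1 “poor” against wild-type mice, the same 4 members were called lower and 0 higher, against 14.9% and 13.5% of all genes. The log2 fold changes were −1.89 for Gpr6 (adjusted P = 3.0e-05, edgeR), −1.70 for Gpr83 (7.6e-07), −2.47 for Gpr139 (0.00132), 0.48 for Gpr149 (0.195) and −0.84 for Gpr155 (0.00284). Here 4 members, Gpr155 included, had every R6/1 value below every wild-type value, which held for 8.85% of all genes. Gpr83 was at rank 3 of 19363 genes by P. Without R6/1 “poor” mouse 4 the value of Gpr149 was 0.69 and was called (adjusted P = 0.0419, edgeR). Only 1 R6/1 “poor” mouse was among libraries 1 to 8, and against the wild-type mice of those libraries Gpr139 (−3.52, adjusted P = 0.242) and Gpr155 (−0.85, adjusted P = 0.448) were no longer called.

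The comparison of “poor” with “good” R6/1 mice asked whether the receptors differ with the behavioural class. The means of Gpr6 (18.5 ± 6.09 against 26.5 ± 6.54 CPM, SD, n = 4), Gpr83 (38.2 ± 7.17 against 48.5 ± 9.61) and Gpr155 (94.2 ± 8.36 against 111 ± 17.2) were lower in “poor” mice, but 0 of 5 members passed the test and the groups overlapped for all 5. The log2 fold changes, with 95% intervals, were −0.50 (−1.04 to 0.04) for Gpr6, −0.33 (−0.69 to 0.03) for Gpr83 and −0.23 (−0.47 to 0.01) for Gpr155 (adjusted P = 0.347, 0.35 and 0.34, edgeR). Within libraries 1 to 8 these values were −0.70 for Gpr6, −0.0013 for Gpr83 and −0.20 for Gpr155, each with an adjusted P of 1. Gpr139 (0.01, −0.97 to 0.98) and Gpr149 (0.08, −0.48 to 0.65) had wider intervals that leave room for differences of either sign. By edgeR’s quasi-likelihood test 0% of all genes were called in this comparison, although 3000 genes had an unadjusted P under 0.05, and DESeq2 called 118 genes lower and 213 higher. Every “poor” value lay below every “good” value in 4.00% of all genes and in 0 of 5 members.

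Library number and performance class went together in these mice. The 1 R6/1 “poor” mouse of libraries 1 to 8 had 16.2 CPM of Gpr6, below the 20.2 to 34.9 CPM of the 4 R6/1 “good” mice. Its 48.1 CPM of Gpr83 and 96.4 CPM of Gpr155 lay within the ranges of the R6/1 “good” mice, 36.6 to 59.8 and 93.2 to 132 CPM.

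In wild-type mice 0 of 5 members and 0% of all genes differed between “poor” and “good” performers (472 genes at an unadjusted P under 0.05 in edgeR, 0 called by DESeq2). The log2 fold changes of the members were −0.15 for Gpr6, 0.15 for Gpr83, −0.31 for Gpr139, 0.52 for Gpr149 and −0.20 for Gpr155, all with an adjusted P of 1 in edgeR. The interaction of genotype and performance, which tests whether the “poor” against “good” difference is unequal in the 2 genotypes, also called 0 of 5 members and 0% of all genes (1118 at an unadjusted P under 0.05, and 1 gene called by DESeq2). Its value for Gpr83 was −0.49 ± 0.19 (SE), with an unadjusted P of 0.0191 and an adjusted P of 0.826 in edgeR. The class means of Gpr83 were 118 ± 8.18 and 130 ± 11.6 CPM in wild-type “good” and “poor” mice (SD, n = 4).

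**Figure D2:**
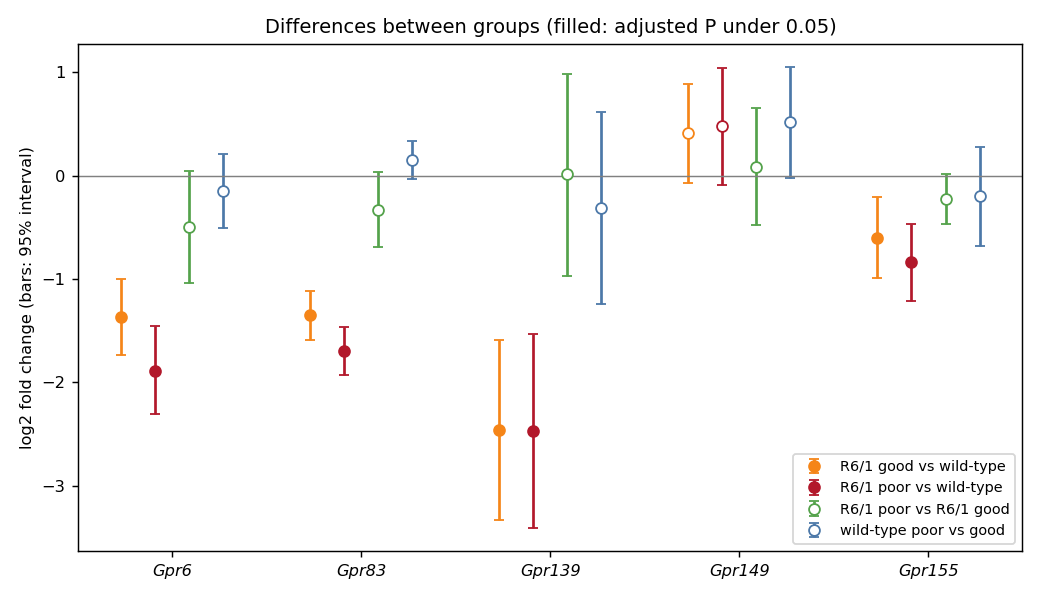
Log2 fold change (vertical axis) of the 5 receptor genes in 4 comparisons, with 95% intervals from edgeR. Filled points have an adjusted P under 0.05, which are the R6/1 against wild-type values of Gpr6, Gpr83, Gpr139 and Gpr155, while all “poor” against “good” values are open.

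Levels of different genes were compared per kilobase of exon. In wild-type mice the order was Gpr6 (38.5 CPM per kb), Gpr155 (25.3), Gpr83 (24.3), Gpr139 (3.63) and Gpr149 (2.38). The first 3 overlapped with their neighbours in the order, as did Gpr139 with Gpr149, while Gpr83 and Gpr139 were apart in every mouse. In R6/1 mice the order became Gpr155 (15.4), Gpr6 (12.6), Gpr83 (8.51), Gpr149 (3.25) and Gpr139 (0.653), and Gpr139 no longer overlapped with Gpr149. Gpr6 thus stood above 93.4% of tested genes per length in wild-type and above 78.7% in R6/1 mice. Gpr139 went from above 50.4% to above 21% of tested genes. By this scale Gpr6, Gpr83 and Gpr155 were among the more abundant genes of wild-type striatum (above 89% of tested genes or more), while Gpr139 and Gpr149 (above 41.8%) were near the middle.

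The other receptors of the same kind gave the frame for these values. Of a list of 32 further orphan receptors, 31 were tested, of which 11 were called lower and 6 higher in R6/1 mice (edgeR). Their median log2 fold change was −0.09, and that of all genes tested was 0.02. In R6/1 “good” mice 8 were lower and 4 higher, and in R6/1 “poor” mice 9 were lower and 5 higher. None of these 31 had a log2 fold change below those of Gpr6, Gpr83 or Gpr139, 2 were below Gpr155, and 28 were below Gpr149. The members were named with results of these data in view, so their place at the low end of this list is no independent finding.

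The 4 list members with the smallest P were Gpr158 (log2 fold change −0.71, adjusted P = 5.6e-06, edgeR), Gpr146 (−0.44), Gpr37l1 (−0.46), a receptor of astrocytes, and Gpr85 (0.44). The 2 receptors below Gpr155, named after their values were seen, were Gpr3 (−0.90) and Gpr26 (−0.84). Gpr3 is a close relative of Gpr6 that also raises cyclic AMP without an added ligand.

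Genes of G proteins, of receptor kinases and arrestins, of proposed ligands and of GATOR1 were measured too. Of 12 G protein alpha subunits, 4 were called lower and 3 higher (edgeR), with a median log2 fold change of 0.08. Gnal, which encodes the subunit that couples striatal receptors to adenylyl cyclase, had −0.52 (adjusted P = 0.00207, edgeR), Gnao1 −0.38, Gna12 −0.29 and Gnaq 0.19. Of 7 receptor kinases and arrestins, 2 were lower and 0 higher (median 0.04), namely Arrb1 and Grk5, each with −0.36. Of the 2 precursors of proposed ligands, 0 were called between the genotypes (median −0.10), and Pcsk1n was called lower in R6/1 “good” mice alone (−0.37, adjusted P = 0.0305, edgeR; 0.37 and adjusted P = 0.0741 in R6/1 “poor” mice). Of the 3 GATOR1 subunits, through which Gpr155 is known to act, Nprl2 was lower (−0.17), Depdc5 was higher (0.29) and Nprl3 was not called (−0.04).

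The receptors were then set against the medium spiny neuron markers in the same mouse. Of 4 indirect pathway markers, 3 were called lower in R6/1 mice (median log2 fold change −1.90), namely Penk, the enkephalin precursor, Adora2a, an adenosine receptor, and Drd2. Of 5 direct pathway markers, 4 were called lower (median −1.03). The log2 CPM of Gpr6 minus the mean log2 CPM of the 4 indirect pathway markers was −1.46 ± 0.135 (SD, n = 8) in wild-type and −1.46 ± 0.206 in R6/1 mice. That mean includes Sp9, which was not called (log2 fold change −0.36), whereas Penk (−2.32), Adora2a (−2.13) and Drd2 (−1.66) each had a lower log2 fold change than Gpr6 (−1.61). Whether these values differ was not tested. Against the 7 pan medium spiny neuron markers the difference was −2.52 ± 0.115 in wild-type and −2.85 ± 0.192 in R6/1 mice for Gpr6, and −1.65 ± 0.259 and −1.88 ± 0.267 for Gpr83. The ranges of the genotypes overlapped for Gpr83, and for Gpr6 through R6/1 “poor” mouse 4 alone (−2.48).

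Gpr139 differed by more than the pan medium spiny neuron markers, from −4.58 ± 0.425 (SD, n = 8) to −5.72 ± 0.791, though its ranges overlapped through R6/1 “poor” mice 1 and 3 (−4.21 and −4.98). Gpr155 moved the other way, from −1.24 (−1.59 to −1.05) in wild-type to −0.62 (−0.90 to −0.27) in R6/1 mice with no overlap. Gpr149 went from a range of −6.38 to −4.47 in wild-type to −4.49 to −2.78 in R6/1 mice, which overlapped by 1 R6/1 mouse. A higher value against the markers in every R6/1 mouse than in every wild-type mouse was found in 64.0% of all genes tested, and a lower value in every R6/1 mouse in 0.196%. The higher value of Gpr155 against the markers was thus shared with most genes.

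**Figure D3:**
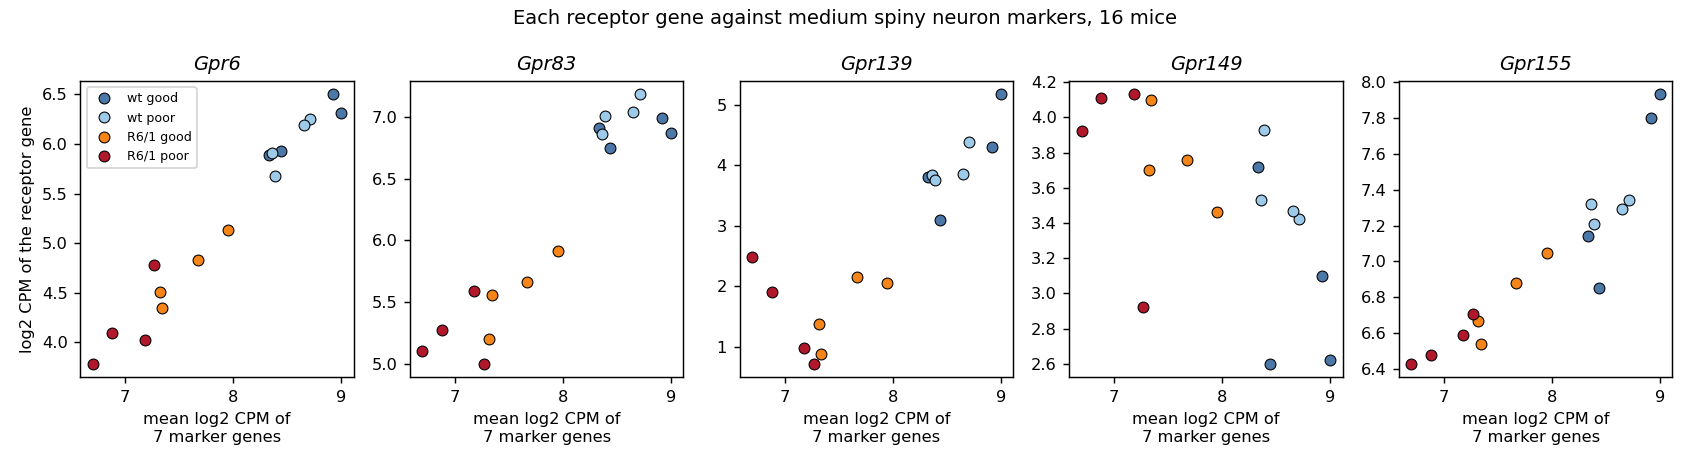
Log2 CPM of each receptor gene (vertical axis) against the mean log2 CPM of 7 pan medium spiny neuron marker genes (horizontal axis) in the 16 mice, coloured by group. Gpr6, Gpr83, Gpr139 and Gpr155 tend to be higher in mice with a higher marker level, while Gpr149 does not. R6/1 mice lie at marker levels of 6.70 to 7.95 against at least 8.33 in wild-type mice, so this relation includes the difference between the genotypes.

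Markers of neighbouring regions varied from mouse to mouse, and their values are given here beside the receptors. The summed level of 6 cortical neuron markers was 33.7, 130, 257 and 705 CPM in wild-type “good” mice 1 to 4, the reverse of the order of Gpr139 (36 to 8.5 CPM) and Gpr155 (243 to 115 CPM) in these mice. Its range was 99.4 to 437 CPM in wild-type “poor”, 35.5 to 478 in R6/1 “good” and 59.1 to 756 in R6/1 “poor” mice. Of the 6 markers, 1 was called lower in R6/1 mice. The full reversed order did not hold in these other groups, though some mice followed it. R6/1 “good” mouse 1, with the highest sum of its group (478 CPM), had the least of both (1.76 and 93.2 CPM). Mouse 4 of that group, with the lowest sum (35.5 CPM), had the most Gpr155 (132 CPM) but not the most Gpr139 (4.05 CPM). R6/1 “poor” mouse 1, with the lowest sum of its group (59.1 CPM), had the most Gpr139 (5.51 CPM) but the least Gpr155 (86.1 CPM). Wild-type “poor” mouse 3 had the lowest sum of its group (99.4 CPM), with 14.3 CPM of Gpr139 and 157 CPM of Gpr155. Mouse 1 of that group, at 280 CPM, had more of both (20.7 and 162 CPM). R6/1 “good” mouse 3, at 96.3 CPM, had less of both (2.51 and 102 CPM) than mouse 2 at 210 CPM (4.37 and 118 CPM). R6/1 “poor” mouse 4, with 756 CPM, had the lowest Gpr83, Gpr139 and Gpr149 levels and the highest Gpr6 and Gpr155 levels of its group.

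The 4 lateral septal markers summed to 194 and 122 CPM in R6/1 “poor” mice 1 and 3 and to 26.1 to 70.8 CPM in R6/1 “good” mice, and ranged from 28.4 to 67.3 CPM in wild-type mice, and 3 of 4 were called higher in R6/1 “poor” than in wild-type mice (edgeR). In R6/1 “poor” mice Gpr139 followed the full order of the septal sums. It had 5.51, 3.65, 1.88 and 1.55 CPM at sums of 194, 122, 51.7 and 29.5 CPM in mice 1, 3, 2 and 4. The other groups did not show this order. R6/1 “good” mouse 3, with the highest septal sum of its group (70.8 CPM), had 2.51 CPM of Gpr139, against 4.37 CPM in mouse 2 (septal sum 29.1 CPM). Wild-type “poor” mouse 4, with the highest septal sum of its group (67.3 CPM), had its lowest Gpr139 level, 13.3 CPM. The 4 medial habenula markers reached 35.3 CPM in R6/1 “poor” mouse 1 against at most 20.2 CPM in the 15 other mice. Their sums in R6/1 “poor” mice had the same order as Gpr139, with 35.3, 12.6, 10.7 and 5.07 CPM in mice 1, 3, 2 and 4. R6/1 “good” mouse 3, with the highest habenula sum of its group (7.89 CPM), did not have its highest Gpr139 level. Of 6 hypothalamic markers, 3 were tested and summed to 27.4 and 18 CPM in R6/1 “poor” mice 1 and 3 and to at most 10.1 CPM in the others. No marker of these 4 lists was at 0 in every library. The part of cortical, septal, habenular or hypothalamic RNA in the receptor values was not tested.

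The genes whose profile over the 16 mice was most like each member were found among 14445 genes by the root mean square (RMS) difference in log2 CPM, each centred on its wild-type mean. For Gpr6 these were Inf2 (RMS 0.165), Tesc (0.173) and Ppp1r1b (0.175), which encodes DARPP-32, where the median gene had 1.25. For Gpr83 they were Chrm4 (0.196), a muscarinic receptor of direct pathway neurons, Traip (0.203) and Adcy5 (0.209), the main striatal adenylyl cyclase, with a median of 1.14. Gpr139 had no close match, the nearest being Hipk4 (0.544), Penk (0.57) and Fgf3 (0.572), with a median of 1.86. For Gpr155 they were Cntnap1 (0.142), Pik3c2b (0.153) and Gnb5 (0.155), a G protein beta subunit, with a median of 0.604. For Gpr149 they were Zcchc12 (0.249), Trpc7 (0.25) and Nectin2 (0.254), with a median of 0.557. With profiles centred on wild-type mice, the median depends on a member’s own difference between the genotypes, so medians do not rank the members. Likeness here includes that difference. The log2 fold changes between the genotypes were −1.51 for Inf2, −1.47 for Chrm4, −2.22 for Hipk4, −0.68 for Cntnap1 and 0.51 for Zcchc12.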

How the data were processed

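Striatal RNA of 16 mice was sequenced by the authors with a stranded mRNA kit as paired-end reads, which were aligned to GRCm38 with TopHat 1.0.1 (the submitters’ processing notes also name CASAVA and Bowtie). The deposited table holds the authors’ raw read counts for 55450 Ensembl genes in 16 libraries of 16155356 to 24897354 counts. Which read counter, strand setting and annotation release were used is not given in the sources used here. Groups came from the sample labels, and 1 library was taken as 1 mouse.

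A gene was kept if 4 or more libraries held 10 or more counts (19363 genes). Counts were scaled by TMM factors and tested with edgeR 4.0.16 (robust quasi-likelihood test, R 4.3.3), fitting only the mice compared, with Benjamini-Hochberg adjustment over all genes and a threshold of 0.05. CPM and log2 CPM, the latter with a prior count of 2, were computed with edgeR. RMS differences, motif counts and figures were made in Python 3.11.15 (pandas 2.3.3, numpy 2.4.6, matplotlib 3.10.9). Symbols and gene models came from GENCODE M21 and promoters from RefSeq. Beyond the 5 members, the text names the 3 genes most like each, up to 4 genes with the smallest P per list, and others only where said. 1 further receptor gene is not reported here. The members and lists were chosen with earlier results of these data known. Alternatives were DESeq2 1.42.0, RLE factors, other count filters, non-robust dispersions, a replicate block and fits within libraries 1 to 8 or 9 to 16. The library set (1 to 8 or 9 to 16) was also used as covariate. Further alternatives were wild-type mice of the same class, 1 fit of all 4 groups and leaving out each mouse.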

Additional observations from a re-analysis of the deposited data

Results flagged for a closer look

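Of 20 sets of 4 mice examined (5 receptor genes in 4 groups), 1 held a mouse that stood apart by Dixon’s criterion. Gpr139 had 20.7 CPM in wild-type “poor” mouse 1, the highest of its group, where the other 3 mice had 13.3 to 14.3 CPM. Chance alone marks about 1 in 20 such sets. The value stayed within the 8.5 to 36 CPM of the wild-type “good” mice.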

How the results depend on the processing

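Gpr6 and Gpr83 kept their direction and their call in all 3 comparisons of R6/1 with wild-type mice under every alternative run, and all alternatives for the levels and for the differences from markers moved by less than the spread between mice. Gpr139 lost its call in R6/1 “poor” against wild-type mice within libraries 1 to 8 (−3.52), as did Gpr155 (−0.85), and there Gpr155 also lost it between the genotypes (−0.69). In R6/1 “good” against wild-type mice Gpr155 lost its call with no filter on low counts (−0.60, adjusted P = 0.105, edgeR). It also lost it with the library set as covariate (−0.64), within libraries 1 to 8 (−0.66) and against wild-type “good” mice alone (−0.70). Its value ranged from −0.69 to −0.51 when each mouse was left out. Gpr149 was called higher in all R6/1 mice within libraries 1 to 8 (0.91), but was 0.16 within libraries 9 to 16 and not called. It was also called higher in R6/1 “good” mice with the library set as covariate (0.84) or within libraries 1 to 8 (0.83). Leaving out each mouse gave Gpr149 0.35 to 0.54 in all R6/1 and 0.37 to 0.69 in R6/1 “poor” against wild-type mice. Uncalled differences changed sign for Gpr139 in R6/1 “poor” against “good” mice and for Gpr6 in wild-type mice within libraries 1 to 8 (0.12). That value of Gpr139 was −0.74 with the library set as covariate and within libraries 1 to 8. It was −0.01 in 1 fit of all 4 groups and −0.41 to 0.24 without each mouse. Without each mouse, other uncalled differences ranged from −0.023 to 0.30 for Gpr149 in R6/1 “poor” against “good” mice. They ranged from −0.57 to 0.15 for Gpr139 in wild-type “poor” against “good” mice. In the interaction they ranged from −0.15 to 0.57 for Gpr139 and from −0.20 to 0.14 for Gpr155. The cause of these changes was not tested. No comparison with R6/1 “good” mice could be fitted within libraries 9 to 16, which hold none, so the genotypes are compared there through R6/1 “poor” mice alone, and within libraries 1 to 8 the lone R6/1 “poor” mouse was assumed to vary like the other mice. The fit of all 4 groups for the genotype comparison was added after seeing the data and changed no call of a member.

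Counts over all genes changed as follows. The 8 R6/1 against the 8 wild-type mice gave 1978 lower within libraries 9 to 16, and 2088 and 1423 higher within libraries 1 to 8 and 9 to 16. R6/1 “good” against wild-type “good” mice gave 1577 lower and 1121 higher. R6/1 “poor” against wild-type mice gave 319 lower and 126 higher within libraries 1 to 8, 1423 higher within libraries 9 to 16, 1642 higher against wild-type “poor” mice, and 1593 to 2618 higher without each mouse. In R6/1 “poor” against “good” mice DESeq2 called 118 lower and 213 higher, edgeR with no filter on low counts called 7 and 21, and leaving out each mouse gave 0 to 12 lower (12 without R6/1 “poor” mouse 2, 9 without mouse 4) and 0 to 90 higher (90 without R6/1 “poor” mouse 4, 49 without mouse 2). In the interaction DESeq2 called 1 gene lower, and leaving out each mouse gave 0 to 2 higher (2 without R6/1 “poor” mouse 2).

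The labels number the mice 1 to 4 in each group and do not say whether the numbers pair them, and the main fits used no pairing. Of 24 same-numbered pairs between groups, 8 had a correlation of deviations over 0.1, with a range of −0.552 to 0.359. Differently numbered pairs were not set beside them, so whether the numbers pair the mice was not tested. With the replicate number as a block, Gpr155 in R6/1 “good” against wild-type mice was −0.57 (adjusted P = 0.0535, edgeR), Gpr139 in R6/1 “poor” against “good” mice was −0.088, and 50 genes were called lower and 46 higher in the latter comparison. The block changed no other call of a member. Gpr139 had 36 to 129 counts per R6/1 library and the widest interval of the 5 members in R6/1 “poor” against “good” mice.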
